A study of Mus musculus with 8 samples.

Results

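Mouse induced pluripotent stem cell (iPSC) clones lacking all PIWI proteins were compared with control clones within the forties series, that is, among the clones numbered in the forties. The comparison set the *Piwi* triple-knockout (TKO) clones 47 and 48 against the control (Ctrl) clones 41 and 43, so it used 4 of the 8 libraries of the study, chosen by clone number and genotype. Of 27052 RefSeq transcript records in the count table, 16347 reached 5 reads in 2 or more of these 4 libraries and were tested. All clones came from mouse embryonic fibroblasts (MEFs) of a mixed genetic background with an Oct4-GFP reporter. The fibroblasts had been transduced with retroviruses for OCT4, SOX2, KLF4 and c-MYC. Colonies were picked onto growth-arrested MEF feeder cells and kept for fewer than 10 passages in serum medium with LIF. TKO cells carried mutant alleles of *Miwi* (open reading frame replaced by a GFP fusion), *Mili* (exons 2 to 5 deleted) and *Miwi2* (in-frame stop codons inserted) on both chromosomes. The Ctrl fibroblasts were triple heterozygous littermates in the methods of the study and wild type or heterozygous in its legends, so Ctrl clones may carry 1 copy of each mutant allele. Each library is 1 clone. The labels do not say what the clone numbers stand for or which embryo a clone came from, and p-values measure the spread between these clones alone.

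PIWI proteins are the germline branch of the Argonaute family. They bind piRNAs, small RNAs that guide the silencing of retrotransposons, and in mice their best known function is in the male germ line. Mouse iPSCs grown with LIF are held in a self-renewing state by transcription factors such as OCT4, SOX2 and NANOG. The comparison asks how many transcripts differ between iPSCs with and without PIWI proteins when only clones of the same series are compared.

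Library totals ran from 23992893 to 28830217 reads in the 4 libraries. The cell type was checked by its markers. The summed normalized count (the read count divided by a size factor for the library) of 8 pluripotency markers was 131006 and 119127 in Ctrl 41 and Ctrl 43 and 147986 and 160931 in TKO 47 and TKO 48. *Dppa5a* held the largest part of the sum, with 57044.5 and 48314 in the Ctrl and 75489 and 83992 in the TKO libraries. *Pou5f1* went the other way (25409 and 24800 against 17653 and 19636). *Esrrb*, a symbol with 2 records, was at 0 to 2 reads in every library. Symbols with more than 1 record were often at 0 here (32.7% of their records, beside 15.2% of the others), so such a 0 is not evidence that a gene was silent. The 10 markers of fibroblasts or feeder cells summed to 21446 and 21615 in the Ctrl and to 36433 and 26668 in the TKO libraries, and *Pdgfrb* had at most 8 reads. The 5 blood cell markers summed to 867 and 910.5 against 1909 and 1175, mostly from *Lyz2* (690 and 756 against 1619 and 926), with *Ptprc* at 0 or 1 read. The neural marker *Dcx* and the trophoblast marker *Tpbpa* were at 0 throughout. In bulk RNA, more cells of a type and more RNA per cell cannot be told apart. All 4 libraries held reads of the Y-linked gene *Kdm5d* (46 to 97), which was at 0 in the thirties libraries. Both genotypes compared here thus carried Y-linked reads. The X-linked gene *Xist* had 602 and 716 reads in the Ctrl and 776 and 1043 in the TKO libraries. It had 268 to 815 reads in the thirties libraries.

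Most transcripts were at similar levels in TKO and Ctrl clones. In the fit 13368 records (81.8%) changed by less than 1.5-fold, and the median log2(TKO/Ctrl) over all records was 0.01. With edgeR's quasi-likelihood test and Benjamini-Hochberg adjustment, 81 records were higher in TKO clones (0.496% of those tested) and 161 lower (0.985%). A change of 2.5-fold or more was reached by 52 of these 242 records, of which 25 were higher (0.153%) and 27 lower (0.165%). The smallest changes that passed were of 0.45 on the log2 scale. None of the 242 records overlapped between the genotypes, nor did 8759 of all 16347 (53.6%). An exact permutation test of 2 against 2 clones cannot give a two-sided p below 0.333, so single genes rest on the fit across all records.

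**Figure D1:**
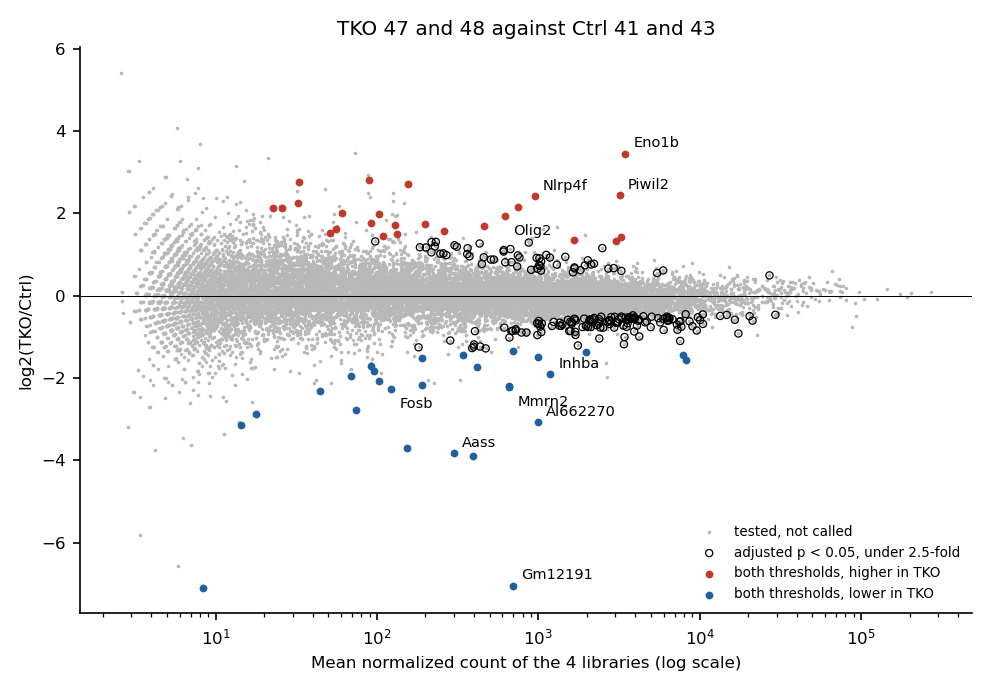
Each point is 1 of 16347 records, with its mean normalized count over the 4 libraries on a log axis and its log2(TKO/Ctrl) on the vertical axis. The 25 higher (red) and 27 lower (blue) records past both thresholds are filled, grey points at low counts reach equally large changes without being called, and of the 190 open circles, called at under 2.5-fold, 134 are lower in TKO clones.

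The calls differ in how firmly they stand. For 205 of the 242 (84.7%) the adjusted p lay between 0.03 and 0.05. Ctrl 41 and Ctrl 43 were more alike than TKO 47 and TKO 48, with 3.02% of the 11092 records of at least 50 mean counts over 1.5-fold apart in the Ctrl clones and 9.14% in the TKO clones. Without Ctrl 41 the test called 6 records and without Ctrl 43 11, while it called 2883 without TKO 47 and 2652 without TKO 48. In 12 alternatives of scaling, filter, test, depth and bias correction that kept all 4 libraries, 25 of the 242 records were called each time, 11 higher and 14 lower. The number was set by 1 alternative, a random thinning of the libraries to the smallest total, which called only these 25. In 10 further random thinnings 17 to 45 records were called. These 25 include *Eno1b*, *Nlrp4f*, *Olig1*, *Olig2*, *St8sia1* and *Piwil2* among the higher and Gm12191, *Inhba*, *Mmrn2*, *Aass*, *Vcl* and *Ccn2* among the lower. Of the 242, 5 were called whichever library was left out, among them *Eno1b*, *Nlrp4f*, Gm12191 and Gm5779.

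The targeted genes were examined first. *Mili* (Piwil2) had 1055 and 923 normalized counts in Ctrl 41 and Ctrl 43 and 6847 and 3935 in TKO 47 and TKO 48. The TKO clones were both above the Ctrl clones, and the fitted difference was 2.45 on the log2 scale (standard error 0.25, adjusted p = 0.0177). *Miwi2* (Piwil4) had 499.6 and 509 counts in the Ctrl and 1712 and 958 in the TKO clones, a log2 difference of 1.40 that did not pass (standard error 0.25, adjusted p = 0.0527). For *Mili* as for *Miwi2* the higher value was in TKO 47. *Miwi* (Piwil1) was near the limit of detection, at 11.7 and 11.4 counts in the Ctrl and 3.08 and 2.63 in the TKO clones (log2 difference -1.98, standard error 0.53, adjusted p = 0.101). Reads were counted over whole records, so they do not show whether the deleted or replaced exons are absent, and a mutant transcript that keeps the remaining exons is counted with the rest. The *Mili* call was lost without Ctrl 41 (adjusted p = 0.159) and without Ctrl 43 (adjusted p = 0.154). *Miwi2* passed without TKO 47 (log2 fold change 0.93) and without TKO 48 (1.76), and did not without Ctrl 41 (1.39, adjusted p = 0.316) or Ctrl 43 (1.41, adjusted p = 0.408).

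Genes near the targeted loci were counted as well. *Mili* lies in mm9 at chr14:70772287-70828901. Of 74 tested neighbours within 5 Mb of it, 5 were called (6.76%, beside 1.48% of all records in either direction), 2 higher and 3 lower. *Phyhip*, 28.4 kb away, rose from 69.2 and 47.8 to 153 and 166 counts (log2 fold change 1.45, adjusted p = 0.0494). *Stc1*, a secreted glycoprotein 1110 kb away, was also higher, while *Dock5*, *Lpar6* and *Pnma2*, between 2220 and 3230 kb away, were lower. Around *Miwi*, at chr5:129242121-129261349, 2 of 67 neighbours were called (2.99%). Of these the adhesion receptor gene *Adgrd1*, 341 kb away, rose from 66.0 and 55.1 to 221 and 179 counts (log2 fold change 1.72, adjusted p = 0.0354), and *Mphosph9* was lower. None of 30 neighbours of *Miwi2*, at chr9:14500674-14545177, was called.

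**Figure D2:**
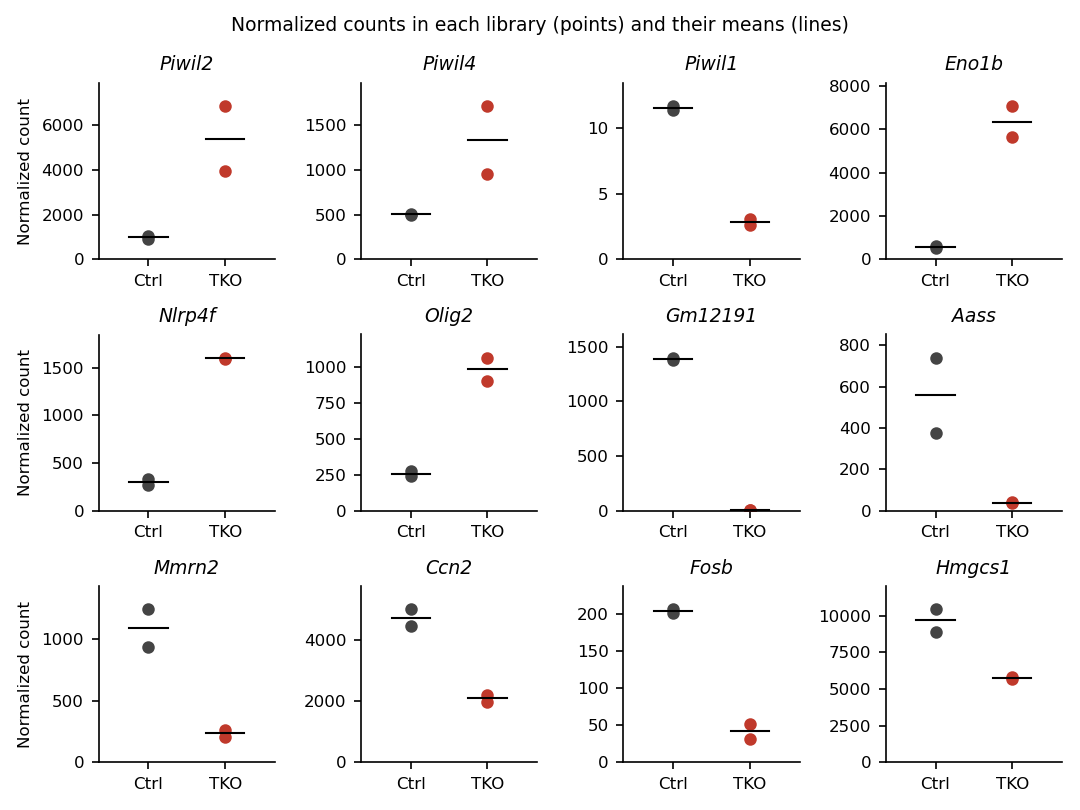
Normalized counts (linear axes from 0) of 12 genes in the 2 Ctrl libraries (grey) and the 2 TKO libraries (red), with a line at each mean. *Piwil2* and *Piwil4* are above the Ctrl values in both TKO libraries but far apart from each other, whereas *Nlrp4f* and Gm12191 differ little within a genotype.

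Among the 25 records that rose past both thresholds, the largest change was that of *Eno1b*, a retrotransposed copy of the glycolytic enolase gene *Eno1*. It had 536 and 626 counts in the Ctrl and 7069.9 and 5632 in the TKO clones, 10.9-fold more (log2 fold change 3.45, standard error 0.15, adjusted p = 0.000527). The parent gene *Eno1* had 17303 and 17157 against 19932 and 14322 counts (log2 difference -0.01, adjusted p = 0.983), and reads can be split between such near-identical sequences. *Nlrp4f*, an NLR-family gene known from the oocyte, rose from 332 and 266 to 1606 and 1592 counts (2.42, standard error 0.14, adjusted p = 0.00214). *St8sia1*, which makes the ganglioside GD3, rose from 224 and 322 to 1276 and 1152.5 counts (2.15, standard error 0.19, adjusted p = 0.0112). In each of these the TKO clones were close to each other and far above the Ctrl clones. *Olig2* and *Olig1*, transcription factors of the oligodendrocyte lineage, rose together. *Olig2* went from 239 and 273 to 903 and 1063 counts (1.94, standard error 0.15, adjusted p = 0.00754), and *Olig1* from 198 and 237 to 781 and 639 (1.70, standard error 0.17, adjusted p = 0.0177). The noncoding record D7Ertd143e (1.34, adjusted p = 0.00394) and *Pigp*, of GPI anchor synthesis (1.35, adjusted p = 0.0139), rose less.

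Many of the other rises were in genes of low count. *Cdkl4*, a CDK-like kinase gene, had 23.4 and 20.8 counts in the Ctrl and 120.04 and 191 in the TKO clones (log2 fold change 2.81, adjusted p = 0.0263). *Osr2*, a zinc-finger transcription factor gene, rose from 4.26 and 12.5 to 49.2 and 66.5 counts (2.77, adjusted p = 0.0474). *Prex2*, a Rac exchange factor gene, rose from 28.8 and 53.01 to 175 and 362 (2.72, adjusted p = 0.0426). These 3 rested on at most 51 reads in a Ctrl library. *Bhmt* of methionine metabolism (2.26), the cation channel gene *Pkd2l1* (2.14), *Bcl2l15* of the Bcl-2 family (2.13), the peptidase gene *Dpp4* (2.00), the arginine methyltransferase gene *Prmt8* (2.00), *Stc1* (1.77) and *Plac9a* (1.74) passed with adjusted p from 0.0388 to 0.0480. *Tnfrsf8* (CD30, 1.63), the adenylate kinase gene *Ak7* (1.57), the potassium channel gene *Kcnj12* (1.49), *Adm2* (1.52), *Phyhip*, *Adgrd1* and *Bnip3* make up the rest. *Plac9a* differed widely within the TKO genotype, with 389.9 counts in TKO 47 and 219 in TKO 48.

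Among the 27 records that fell, Gm12191, a short noncoding record of 524 bases on chromosome 11, was nearly lost. It had 1401 and 1377 normalized counts in the Ctrl and 12.3 and 8.75 in the TKO clones, 132-fold less (log2 fold change -7.04, standard error 0.19, adjusted p = 4.66e-05). The noncoding records Gm5779 (804 and 681 against 61.6 and 38.5 counts), NR_033599 (285 and 285 against 20.5 and 22.8) and AI662270 (1833 and 1731 against 136 and 283) had log2 changes of -3.90, -3.71 and -3.08, with adjusted p between 0.00214 and 0.0139. These noncoding records were among the deepest falls. In all, 5 of the 27 lower and 1 of the 25 higher records past both thresholds are noncoding (NR) records. Such records were 718 of the 16347 tested. At the adjusted p alone 7 of these 718 were lower and 2 higher, beside 161 and 81 of all records. *Rps15a-ps4*, a ribosomal protein pseudogene, fell from 177 and 156 to 30.8 and 47.3 counts (-2.08, adjusted p = 0.0354), and its parent gene *Rps15a* did not pass (0.30, adjusted p = 0.253). Another pseudogene of that parent, *Rps15a-ps6*, rose from 255 and 254 to 531 and 693 counts (1.27, adjusted p = 0.0354). Reads can be split among these copies.

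Several metabolic and secreted-protein genes fell too. *Aass*, which encodes the bifunctional enzyme that starts lysine breakdown, had 740.3 and 378 counts in the Ctrl and 35.9 and 42.9 in the TKO clones (-3.82 on the log2 scale, standard error 0.36, adjusted p = 0.0139). The Ctrl clones differed widely from each other, and both were far above the TKO clones. *Gc*, the vitamin D-binding protein gene, fell from 30.9 and 20.8 to 2.05 and 3.50 counts (-3.14, adjusted p = 0.0452). *Afm* (afamin, of the same albumin family) had 15 and 17 reads in the Ctrl and none in the TKO clones, which is at least 5.90-fold lower with a floor of 3 reads per library. *Dpys*, of pyrimidine breakdown, fell from 73.5 and 74.8 to 19.5 and 10.5 counts (-2.32, adjusted p = 0.0410). *Fgl2*, a fibrinogen-like protein gene, fell from 144 and 115 to 20.5 and 17.5 (-2.77, standard error 0.28, adjusted p = 0.0177). None of these overlapped between genotypes, which held for all 242 called records and for 53.6% of all records tested. *Dcstamp*, which encodes a cell fusion protein of osteoclasts (-2.86), *Dner*, a Notch ligand gene (-2.16), *Fam25c* (-2.20) and the zinc-knuckle gene *Zcchc7* (-1.94) fell with adjusted p from 0.0354 to 0.0410. The hormone gene *Trh* was lower at high counts, with 12033 and 12532 in the Ctrl and 5045 and 3279 in the TKO clones (-1.56, adjusted p = 0.0296). *Usp26*, a deubiquitinase gene, fell from 3252 and 2436 to 1072 and 1130 counts (-1.37, adjusted p = 0.0224). *Mb21d2* (-1.48), the kindlin gene *Fermt1* (-1.44), *Cdcp1* (-1.52) and *Nppb*, which encodes a natriuretic peptide (-1.83), fell with adjusted p from 0.0112 to 0.0410, and most others of the 27 are described with their gene lists.

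Some of the called genes are neighbours. Among 234 called records with an mm9 position, 11 pairs of different genes lay within 100 kb of each other, and 10 of these pairs moved in the same direction. The same counts over all tested records were not made, so these are descriptions and not evidence of clustering. In 4 pairs both genes passed both thresholds. They were *Olig1* with *Olig2* (41.1 kb apart, both higher), *Phyhip* with *Mili* (both higher), *Mmrn2* with *Fam25c* (20.1 kb, log2 fold changes -2.21 and -2.20) and *Dcstamp* with *Dpys* (7.55 kb, -2.86 and -2.32). Gm12191 lies within *Cnot6*, a deadenylase gene that also fell (-0.76). Overlapping and adjacent genes can share reads, and the setting for strand in the authors' counting is not given in the sources used here.

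Members of the contractile, SRF and YAP target list were lower. Serum response factor (SRF) and YAP switch on genes of the actin cytoskeleton and of cell adhesion, SRF by binding the CArG box. Of 22 list members tested 4 were lower (18.2%, beside 0.985% of all records) and none higher. In 21 of the 22 the sign was negative (beside 48.6% of all records), and the median log2(TKO/Ctrl) was -0.55 (0.01 over all records). *Ccn2* (also called Ctgf), a matricellular YAP target, fell from 4427 and 4994 to 1979 and 2187 counts (-1.18, standard error 0.10, adjusted p = 0.0112). *Vcl*, which encodes the adhesion protein vinculin, fell from 10061 and 10607 to 4339 and 5316 (-1.10, standard error 0.11, adjusted p = 0.0177). *Srf* itself fell from 2562 and 2387 to 1502 and 1482 counts (-0.73, adjusted p = 0.0353), and *Cnn2* (calponin 2) from 4453 and 4411 to 2452 and 2797 (-0.76, adjusted p = 0.0353). The TKO values of these 4 genes were all below the Ctrl values, as in every record called lower. *Acta1* (skeletal actin, 201 and 114 against 42.1 and 75.3 counts) and *Abra* (36.2 and 17.7 against 7.18 and 8.75) had larger differences that did not pass (adjusted p = 0.100 and 0.113). *Acta2* (smooth muscle actin, -0.33) and *Tagln* (-0.39) did not pass either. Fibroblasts also use many of these genes. The part of the summed fibroblast markers given above in these differences was not tested. The list median was -0.58 without Ctrl 41, -0.46 without Ctrl 43, -0.39 without TKO 47 and -0.72 without TKO 48. The calls of this list needed both Ctrl libraries.

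The promoters of these genes are shown because the list is defined partly by SRF. In the RefSeq promoter table (GRCm38.p6, 250 bases before to 50 after the start of each gene), 6 of the 17 tested list members with an entry hold a CArG box, searched on both strands, namely *Acta1*, *Actc1*, *Cnn2*, *Myl9*, *Srf* and *Vcl*. Over all tested genes 187 of 11685 promoters (1.6%) hold it. Among genes called lower 5 of 122 (4.1%) hold it, and among genes called higher 2 of 57 (3.51%). The 5 lower genes include the list members *Cnn2*, *Srf* and *Vcl*. A match describes the sequence and is not evidence of binding. Stretches around the box, with the box in capitals, are printed 5′ to 3′ on the strand of the gene. Distances are from the start site of the GRCm38.p6 table, which is not the start in the mm9 GENCODE annotation for every gene. The stretches were placed by exact match in NCBIM37 (mm9) at chr17:46693134-46693223 for *Srf*, chr14:21748370-21748432 for *Vcl*, chr10:79451259-79451328 for *Cnn2* and chr8:126418709-126418778 for *Acta1*.
Srf, minus strand: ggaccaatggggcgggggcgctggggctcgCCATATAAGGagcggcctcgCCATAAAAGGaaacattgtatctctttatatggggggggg
Vcl, plus strand: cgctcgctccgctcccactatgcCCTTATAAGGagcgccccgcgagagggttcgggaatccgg
Cnn2, plus strand: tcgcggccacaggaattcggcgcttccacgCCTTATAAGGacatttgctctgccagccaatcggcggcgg
Acta1, minus strand: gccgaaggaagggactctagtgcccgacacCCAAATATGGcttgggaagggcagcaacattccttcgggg
*Srf* has a pair of boxes, starting 82 and 62 bases before that start site, and the boxes of *Cnn2* and *Acta1* start 56 and 73 bases before it. The box of *Vcl* starts 227 bases before it. *Srf*, *Vcl* and *Cnn2* fell in TKO clones, and *Acta1* did not pass.

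AP-1 and immediate early genes, which respond within minutes to serum and growth factors, were next. Of 18 tested members 3 were lower (16.7%, beside 0.985% of all records) and none higher, with a median of -0.44 (0.01 over all records). *Fosb* fell from 201 and 207 to 31.8 and 51.6 counts (-2.28, standard error 0.27, adjusted p = 0.0296) and *Fos* from 599 and 675 to 160.05 and 225 (-1.72, standard error 0.19, adjusted p = 0.0249). *Ptgs2* (cyclooxygenase 2) fell from 2153 and 2764 to 915 and 1211 (-1.21, adjusted p = 0.0388). Other members did not pass, among them *Egr1* (1338 and 1716 against 901 and 2192 counts), *Jun* (736 and 721 against 833 and 959), *Junb* and *Ier2*, and 7 of the 18 members had a positive sign. No member of the list was called with libraries thinned to the smallest total.

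Angiogenic and endothelial genes had 2 lower members of 15 (13.3%, beside 0.985% of all records), none higher and a median of -0.50. Of these, *Mmrn2*, the gene of an extracellular matrix protein of vessels, fell from 1246 and 934 to 263 and 209 (-2.21, standard error 0.19, adjusted p = 0.0112). The defining endothelial markers *Cdh5* (5 to 12 reads) and *Pecam1* (24 to 48 reads) were low in every library, and the 5 endothelial markers summed to 519 and 489 in the Ctrl and 527 and 665 in the TKO clones. In the Nodal, activin and BMP list 1 of 33 members was lower (3.03%, beside 0.985% of all records) and none higher, with a median of -0.28. That member was *Inhba*, the activin A subunit gene, which fell from 1811 and 1942 to 434 and 573 counts (-1.90, standard error 0.15, adjusted p = 0.00831). *Fst*, which encodes the activin antagonist follistatin, had 705 and 798 against 384 and 476 counts and did not pass (-0.80, adjusted p = 0.0577). The receptors and SMAD genes of the list did not pass.

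**Figure D3:**
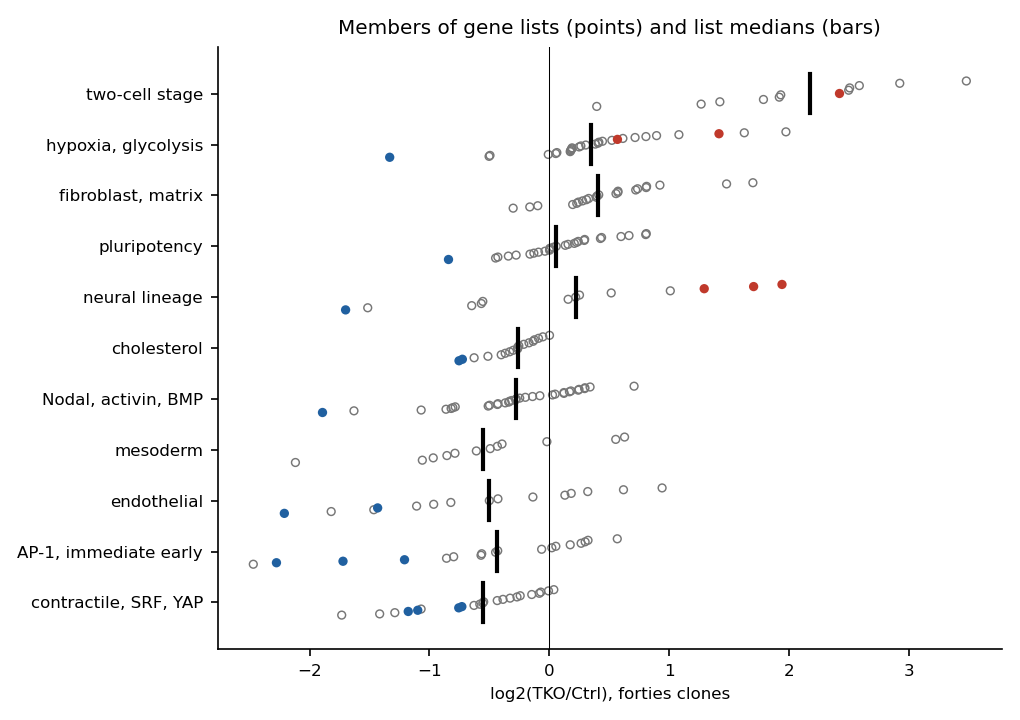
log2(TKO/Ctrl) of each tested member of 11 gene lists, with filled points for members with an adjusted p under 0.05 (red higher, blue lower) and a black bar at the list median. The contractile members lie almost wholly to the left of 0 and the 2-cell-stage members wholly to the right, though only *Nlrp4f* of the latter was called.

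In the pluripotency network 1 gene passed. Of 27 tested members none was higher and 1 lower (3.70%, beside 0.985% of all records), and the median was 0.06. *Pou5f1* (OCT4) had 25409 and 24800 counts in the Ctrl and 17653 and 19636 in the TKO clones (-0.43, adjusted p = 0.0621), *Sox2* 9203 and 8908 against 10850.5 and 11367 (0.29, adjusted p = 0.103) and *Nanog* 8887 and 8338 against 8818 and 11080 (0.21, adjusted p = 0.355). The called member was *Lin28a*, an RNA-binding protein that blocks let-7 maturation, which fell from 11610 and 13057 to 6638 and 7104 counts (-0.84, standard error 0.09, adjusted p = 0.0248). *Prdm14* (0.81, adjusted p = 0.0516) and *Dppa5a* (0.60, adjusted p = 0.0509) were just outside the threshold. None of the 16 primed epiblast genes passed, and *Lefty2* (4572 and 5037 against 5943 and 3848 counts, 0.03) and *Nodal* (1391 and 1202 against 1367 and 1710, 0.25) overlapped or were close. None of 18 endoderm, 12 mesoderm (median -0.55) and 9 trophoblast genes passed. *Lhx1* (549 and 192 against 53.3 and 116 counts, adjusted p = 0.0936), *Krt8* (6102 and 1906 against 920.3 and 1653, adjusted p = 0.137) and *Krt18* (4149 and 1369 against 893 and 1237, adjusted p = 0.151) had large differences, with Ctrl 41 far above Ctrl 43. Of 13 neural genes 3 were higher (23.1%, beside 0.496% of all records), *Olig1*, *Olig2* and the axon guidance gene *Sema5a* (536 and 477 against 1287 and 1195 counts, 1.29, adjusted p = 0.0139). The 1 lower member (7.69%, beside 0.985% of all records) was *Nrsn1* (125 and 157 against 49.2 and 37.6, -1.70, adjusted p = 0.0410). The defining neural markers *Pax6*, *Sox1* and *Neurod1* did not pass.

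Genes of the 2-cell-stage embryo, which a small share of pluripotent cells switch on at any time, were high in 1 library. All 12 tested members had a positive sign and the median log2(TKO/Ctrl) was 2.17, but 1 member, *Nlrp4f*, passed (8.33%, beside 0.496% of all records). *Zscan4c* had 27.7 and 13.5 counts in the Ctrl, 37.96 in TKO 47 and 273 in TKO 48. *Zscan4d* had 30.9 and 21.8 in the Ctrl, 29.8 in TKO 47 and 268 in TKO 48, and *Usp17la* had 50.1, 26.0, 45.1 and 382 in the same order. The excess was thus in TKO 48, and without that library the median of the list was 0.32. Without TKO 47 it was 2.62. *Nlrp4f* differed from the rest of the list, with like values in both TKO clones. The *Zscan4* genes are near-identical copies of each other, and how reads matching several of them were assigned is not given in the sources used here.

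The germ cell and piRNA pathway list, which holds partners and targets of the PIWI proteins, had no called member among 22. Its median was 0.01. *Tex19.1*, a germ cell gene also used in pluripotent cells, had 4616 and 3771 counts in the Ctrl and 2995 and 2912 in the TKO clones (-0.51, adjusted p = 0.0740), and the Tudor-domain gene *Rnf17* had 2544 and 2456 against 1982 and 1721 (-0.43, adjusted p = 0.0861). Among 18 tested genes of DNA methylation and H3K9 silencing, 1 was lower (5.56%, beside 0.985% of all records), the chromatin remodeller gene *Hells* (11163 and 11832 against 8428 and 7586 counts, -0.52, adjusted p = 0.0477). None of 24 imprinted genes passed. *Peg3* had 9498 and 8283 against 7822 and 7601 counts (-0.21), and the maternally expressed *H19* had 6249 and 6670 against 4879 and 5413 (-0.33, adjusted p = 0.111).

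The hypoxia and glycolysis list had 2 higher members (7.14%, beside 0.496% of all records), 1 lower member (3.57%, beside 0.985%) and a median of 0.34 over 28. *Bnip3*, a mitophagy receptor gene, rose from 1916 and 1612 to 5782 and 3633 counts (1.42, standard error 0.21, adjusted p = 0.0410) and *Ldha* from 1316 and 1329 to 2038 and 1885 (0.57, adjusted p = 0.0487). *Epas1*, which encodes HIF-2 alpha, fell from 887 and 1099 to 487 and 304 (-1.33, adjusted p = 0.0487). Several members were higher in TKO 47 than in TKO 48. *Ndrg1* had 588 and 455 counts in the Ctrl, 2312.5 in TKO 47 and 914 in TKO 48 (1.63, adjusted p = 0.0862), and *Pdk1* had 3464 and 3866 against 5150 and 2465 (0.05). *Slc2a1* (20360 and 15188 against 23176 and 17022) overlapped between the genotypes.

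Of 18 cholesterol synthesis and uptake genes 2 fell (11.1%, beside 0.985% of all records) and none rose. The sign was negative in 17 (beside 48.6% of all records), with a median of -0.26. *Hmgcs1*, an early enzyme of the mevalonate pathway, fell from 8899 and 10455 to 5670 and 5811 counts (-0.75, standard error 0.10, adjusted p = 0.0354), and *Idi1*, further along it, from 3999.96 and 4410.1 to 2575 and 2512 (-0.73, adjusted p = 0.0343). *Lss*, a later enzyme of sterol synthesis, was just outside the threshold (-0.63, adjusted p = 0.0501).

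In the remaining lists fewer members passed. *Pmaip1* (NOXA) was the 1 lower member of 18 p53 pathway genes (5.56%, beside 0.985% of all records), with 6220 and 5021 against 2643 and 3016 counts (-0.99, adjusted p = 0.0353). Of 29 FGF and ERK genes 2 were lower (6.90%, beside 0.985% of all records), *Nras* (5081 and 5051 against 3389 and 3377 counts, -0.58, adjusted p = 0.0382) and the ERK phosphatase gene *Dusp4* (1005 and 1189 against 629 and 553, -0.89, adjusted p = 0.0410). None of 31 WNT, 15 LIF, 8 blood cell, 22 fibroblast and 13 housekeeping genes passed. At an unadjusted p under 0.05 there were 12 higher fibroblast genes and 3 higher blood cell genes. There were also 3 higher and 1 lower housekeeping genes, 2 higher and 9 lower WNT genes, and 2 higher and 1 lower LIF genes. Over all records 3560 of 16347 passed that unadjusted p in either direction. DESeq2 called 6 fibroblast genes higher, beside 450 of all records. The WNT genes with most counts, *Csnk1a1* (7793 and 7897 against 7281 and 7381) and *Apc* (5862 and 6862 against 4644.5 and 4851), differed by -0.10 and -0.42. *Pim1* and *Pim3* of the LIF list differed by 0.22 and -0.03, and the sign of *Pim3* turned without Ctrl 41 or TKO 48. *Rplp0* had 69336 and 66726 against 85269 and 76407 counts (0.25, adjusted p = 0.165) and *Pgk1* 69153 and 60774 against 96062 and 59881 (0.26, adjusted p = 0.492).

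The next 3 lists were chosen after the values were seen, so their counts are descriptions. The transcription factor ATF4 is translated when amino acids are scarce and switches on genes for their synthesis, transport and charging to tRNA. Of 34 tested genes of this response 9 were higher (beside 0.496% of all records) and none lower, with a median of 0.35. *Gpt2*, a mitochondrial alanine aminotransferase gene, rose from 1549 and 1539 to 3207 and 3682 counts (1.16, standard error 0.10, adjusted p = 0.0112). *Chac1*, which encodes a glutathione-degrading enzyme, rose from 415 and 359 to 704 and 967 (1.11, adjusted p = 0.0452), and the transporter genes *Slc1a4* (690.3 and 809.7 against 1432 and 1552) and *Slc6a9* (164 and 199 against 389.9 and 459) rose by 0.99 and 1.23. *Aldh1l2*, *Shmt2* and *Pck2* of mitochondrial carbon metabolism, the stress gene *Nupr1* and *Adm2* were also called. *Atf4* itself (7336 and 7840 against 9558 and 9931 counts, 0.36, adjusted p = 0.0765) and *Asns* (15657 and 13502 against 11482.5 and 16043, -0.08) were not. The count of 9 became 4 with the record length trend removed, 2 with the GC trend removed and 1 with libraries thinned to the smallest total. The median of the list was 0.40 without Ctrl 41, 0.28 without Ctrl 43, 0.31 without TKO 47 and 0.35 without TKO 48. Calls in this list needed both Ctrl libraries.

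The sequence TTGCATCA, in either orientation, is a form of the element that ATF4 and C/EBP proteins bind. It is in the promoter entries of 6 of 27 genes of this list (22.2%) and of 88 of the 11685 tested genes (0.753%). Among the 9 higher genes it is in *Chac1*, *Nupr1* and *Slc1a4*. The element is shown in capitals for the first pair, placed by exact match in NCBIM37 (mm9) at chr2:119176755-119176822 and chr7:133769057-133769124, where it starts 193 and 110 bases before the start site of the GRCm38.p6 table. The stretch of *Nupr1* lies within the mm9 span of the gene of that symbol in the GENCODE annotation, chr7:133766763-133770524.
Chac1, plus strand: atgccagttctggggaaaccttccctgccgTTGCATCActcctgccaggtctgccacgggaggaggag
Nupr1, minus strand: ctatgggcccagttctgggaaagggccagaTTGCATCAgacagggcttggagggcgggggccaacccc
The other list members with the element, *Aars*, *Slc7a11* and *Fgf21*, did not pass, with log2 differences of 0.28, 0.06 and -0.42. The element is thus found in promoters of genes that rose and of genes that did not.

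Argonaute proteins are relatives of the PIWI proteins that work with microRNAs. Of 20 genes of microRNA processing and silencing, a list also made after values were seen, 5 were lower (beside 0.985% of all records) and none higher, with a median of -0.28. *Ago2*, the slicing Argonaute gene, fell from 6552 and 7347 to 4339 and 4541 counts (-0.65, standard error 0.09, adjusted p = 0.0388). *Dgcr8*, a partner of DROSHA (4790 and 4634 against 3378 and 3121, -0.54), the export factor gene *Xpo5* (7961 and 8261 against 5734 and 5193, -0.57) and *Trim71* (3195 and 3514 against 2139 and 2238, -0.62) fell with adjusted p from 0.0410 to 0.0452. *Lin28a* is also in this list. *Ago1* (3554 and 3911 against 3609 and 3400) and *Dicer1* (5809.8 and 6587 against 5355 and 5069) did not pass. These records are long (3480 to 8031 bases for those called), and the count of 5 was 2 with the length trend removed, 3 with the GC trend removed and 0 after thinning. It was 6 with DESeq2, beside 633 of all records. Medians of this list were -0.33 without Ctrl 41, -0.21 without Ctrl 43, -0.28 without TKO 47 and -0.31 without TKO 48. Its calls needed both Ctrl libraries. Of 20 genes of mitochondrial fatty acid oxidation 3 were higher (beside 0.496% of all records), *Acaa2*, *Eci1* and *Ech1* (0.66, 0.66 and 0.62), and none lower. None of these 3 was called with the length trend or the GC trend removed.

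The thirties clones (Ctrl 33 and 34, TKO 35 and 37) share no library with the comparison above and give a second measurement of each record. In their own fit 2.31% of 16775 records were higher and 3.75% lower. Of the 27 lower records 26 were in that fit, 25 had the same direction and 16 were called lower there, beside 4.97% of all records with a negative sign in the forties. Of the 25 higher records 18 had the same direction and 9 were called higher there, beside 3.72% of all records with a positive sign. The shares with the same direction over all such records were 60.7% and 58.6%. Gm12191 had 1121 and 1126 counts in Ctrl 33 and 34 and 6.65 and 7.57 in TKO 35 and 37 (log2 fold change -7.28), and *Eno1b* had 581 and 365 against 6542 and 5683 (3.72). *Mili* rose more there, from 746 and 869 to 9870.1 and 9864 counts (3.61), and the interaction did not pass (-1.16, adjusted p = 0.0957). *Aass* (-4.29), AI662270 (-3.24), *Inhba* (-2.21), *St8sia1* (2.65) and *Bnip3* (1.68) were called in the same direction. *Nlrp4f* (0.96, adjusted p = 0.308), *Fosb* (-1.01, adjusted p = 0.174), *Fgl2* (-0.92, adjusted p = 0.309) and *Dner* (-0.20, adjusted p = 0.673) were not. *Nlrp4f* had 250 counts in Ctrl 33 and 1061 in Ctrl 34, against 1215 and 1395 in TKO 35 and TKO 37. The count of 25 records called in both series was 12 without TKO 35 and 10 without TKO 37. The thirties libraries held no *Kdm5d* reads and at most 12 of *Uty*, so the series differ in Y-linked reads as well as in clone number. In the thirties, depth also went with genotype, with 8983203 and 17216692 reads in the Ctrl and 45005422 and 52457455 in the TKO libraries. Its part in the thirties values and in the interaction below was not tested.

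**Figure D4:**
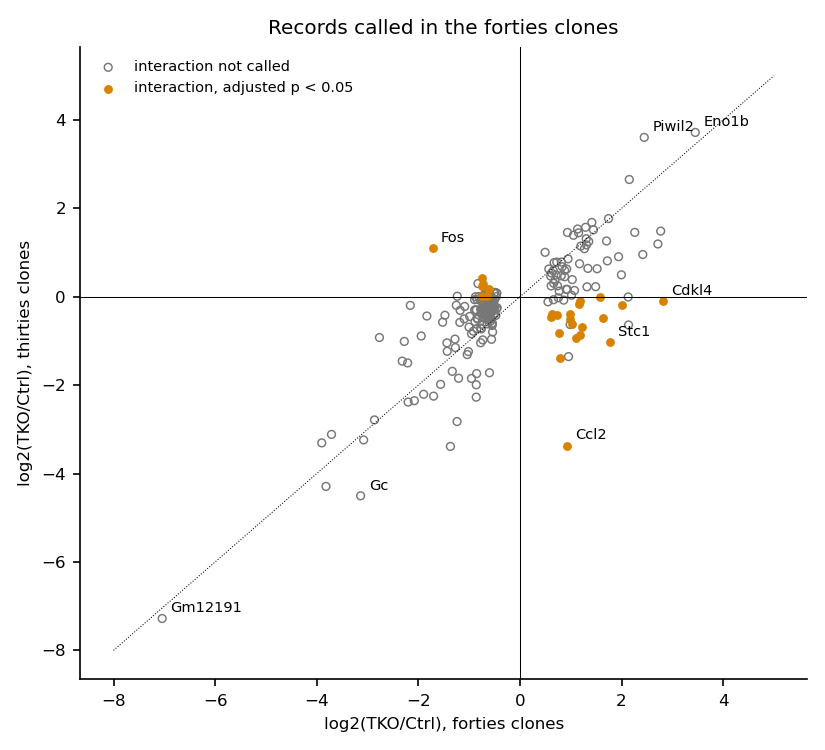
Each point is a record called in the forties clones, with log2(TKO/Ctrl) in the forties on the horizontal and in the thirties on the vertical axis, and the dotted line marks equal values. Gm12191, *Eno1b* and *Piwil2* have the same direction in both series, while *Ccl2*, *Stc1*, *Cdkl4* and *Fos* (orange) differ between the series by the interaction test.

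A test of the difference between the series called 226 of 17390 records, 181 with a larger TKO/Ctrl ratio in the forties (1.04%) and 45 with a smaller one (0.259%). *Ccl2*, a monocyte chemoattractant gene, rose in the forties from 747 and 881 to 1453 and 1647 counts (0.93, adjusted p = 0.0382) and fell in the thirties from 1284 and 965 to 107 and 109.7 (-3.37, adjusted p = 0.00474), an interaction of 4.29 (adjusted p = 0.000182). *Serpinf1*, which encodes the secreted protein PEDF, moved in the same opposed way (0.78 and -1.39). *Fos* fell in the forties and had 362 and 216 against 674 and 543 counts in the thirties (1.10, adjusted p = 0.0639), an interaction of -2.83 (adjusted p = 0.0171). The fibroblast and matrix list had a median of 0.40 in the forties and -1.16 in the thirties, and the interaction was called for 11 of its 22 members. The summed fibroblast markers given above were higher in the TKO clones of the forties, and their part in these differences was not tested. The cholesterol list had a median of -0.26 in the forties and 0.34 in the thirties with 5 of 18 interactions called, and the amino acid response genes 0.35 and -0.19 with 8 of 34. The contractile list had a negative median in both series (-0.55 and -1.34), with *Acta2* and *Tagln* lower by more in the thirties (interactions 1.89 and 1.51). In the thirties 11 of its members were called lower, beside 3.75% of all records. Of the 4 members called in the forties, *Vcl* was called lower there too (-0.50, adjusted p = 0.0409). *Ccn2* (-0.31, adjusted p = 0.233), *Cnn2* (-0.62, adjusted p = 0.233) and *Srf* (0.02, adjusted p = 0.951) were not.

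The direction of change went with the length and base composition of the transcript. Among the 11092 records of at least 50 mean counts, the median log2(TKO/Ctrl) was 0.13 in the shortest of 5 equal bins of records and -0.11 in the longest. By GC content, over those with a value, it was -0.16 in the lowest of 5 bins and 0.14 in the highest. The 134 lower records that did not reach 2.5-fold had a median length of 4477.5 bases and a GC content of 44.8%, against 2702 bases and 50.8% over all tested records. The 56 higher records of that kind had a median length of 2970 bases and a GC content of 54.5%, and the 27 lower records past both thresholds had a median length of 2110 bases and, for the 22 with a value, a GC content of 49.9%. The thirties clones showed the same order of medians by length, from 0.06 to -0.08. With each library's length trend removed, 112 records were called in place of 242, and with the GC trend removed 88.

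**Figure D5:**
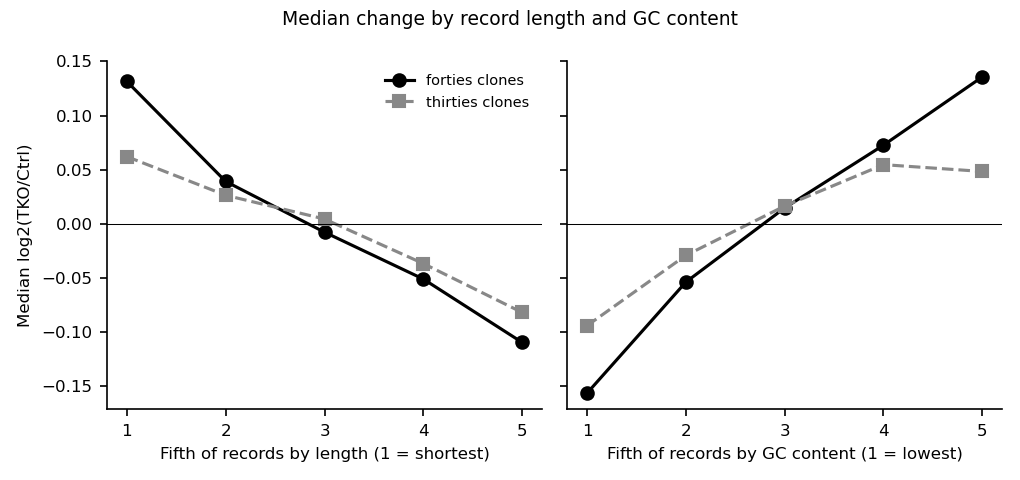
Median log2(TKO/Ctrl) of records in 5 equal bins by length (left) and by GC content (right), for the forties (black) and the thirties clones (grey). In the forties the medians run from 0.13 to -0.11 with length and from -0.16 to 0.14 with GC content. In the thirties they fall with length over a narrower range. By GC content the thirties medians rise from -0.094 in bin 1 to 0.055 in bin 4, with 0.048 in bin 5.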

How the data were processed

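RNA of 8 iPSC clones was sequenced (TruSeq RNA kit, single-end Illumina reads). Per the methods and the submitters' processing notes, the authors aligned reads with BWA 0.7.5a to mouse mm9 transcripts and deposited raw counts for 27052 RefSeq records. How multiply matching reads and strand were counted is not given in the sources used here. From the deposited counts, records that reached 5 reads in 2 or more forties libraries were fitted with edgeR's (4.0.16) quasi-likelihood test and median-ratio size factors. Calls needed a Benjamini-Hochberg adjusted p under 0.05, and changes past 2.5-fold were counted separately. The standard error is the log2 fold change divided by the square root of F. The same fit was made on the thirties libraries, and a model of all 8 libraries gave the interaction. Named by rule were the 15 higher and 15 lower records of largest change past both thresholds with a mean of 20 or more normalized counts and no overlap, the PIWI genes, up to 4 called members of each of 25 lists (or else the 2 with most counts), the 5 records of lowest interaction p in each direction and the sex-linked genes. Other genes were named after their values were seen, and some results are not reported here. The members and lists were chosen with earlier results of these data known, and 3 lists after the values of this fit were seen. Alternatives changed the scaling, filter, test (DESeq2 1.42.0, limma 3.58.1), depth and libraries used. The code was tested on simulated data.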

Additional observations from a re-analysis of the deposited data

Results flagged for a closer look

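For 28 named genes the TKO/Ctrl change differed between the forties and the thirties clones, by the interaction test of the model of all 8 libraries with edgeR's adjusted p under 0.05. They include the 5 records of lowest interaction p in each direction, which were named for that reason, so the count of 28 is a description. The difference of log2 changes (forties minus thirties) was positive for *Ccl2* (4.29), *Pde7b* (3.26), *Ccl7* (3.17), *Cdkl4* (2.91), *Stc1* (2.80), *Lefty2* (2.64), *Mmp10* (2.46), *Dpp4* (2.19), *Serpinf1* (2.17), *Tnfrsf8* (2.11), *Chac1* (2.05), *Slc6a9* (1.90), *Acta2* (1.89), *Aldh1l2* (1.63), *Ak7* (1.58), *Tagln* (1.51), *Slc1a4* (1.498), *Nupr1* (1.36), *Gpt2* (1.32), *Vim* (0.97) and *Atf4* (0.63). It was negative for *Fos* (-2.83), *S100a13* (-1.54), *Hmgcs1* (-1.19), *Lss* (-1.17), *Polk* (-1.10), *Idi1* (-1.03) and *Trp53inp1* (-0.94). With 2 clones in each group, no group was large enough for a search for single outlying samples.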

How the results depend on the processing

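Each library decided the counts. Leaving out 1 forties library gave 6 to 2883 records past the adjusted p in place of 242, and 6 to 388 past both thresholds in place of 52, since 1 clone is then assumed to vary like the other genotype. The count past the adjusted p was 1083 with DESeq2, 1291 with edgeR's exact test, 25 after thinning, 112 with the length trend removed and 88 with the GC trend removed. Past both thresholds it was 202 with the exact test, 5 in a test against a 2.5-fold change, 18 after thinning, 34 with the length trend and 32 with the GC trend removed. The trend corrections and 10 further thinnings (17 to 45 calls) were chosen after seeing the data. No call of the 242 changed direction under any of these, which is a weak check. None of the 242 overlapped between the genotypes and the smallest change was 0.45 on the log2 scale. Leaving out 1 library could therefore hardly turn a sign. Of the 242 calls 81 were higher in TKO clones. The share of higher calls was 41.6% with DESeq2, 44.1% with the exact test, 44% after thinning, and 45.6% and 50.2% without TKO 48 and TKO 47. It was 29.2% with limma-voom, 31.1% with counts summed per symbol and 27.3% without Ctrl 43. Contractile genes called lower numbered 10 with DESeq2, 11 with the exact test, 2 after thinning and 0 to 16 without 1 library. For immediate early genes these counts were 5, 6, 0 and 0 to 9. *Piwil2* ranged from 1.99 to 2.79 without 1 library (2.54 without Ctrl 41 and 2.35 without Ctrl 43, where it did not pass). *Piwil4* passed at 1.40 with no filter (adjusted p = 0.0391), DESeq2 (8.54e-07), the exact test (3.74e-05) and the model of 8 libraries (0.0257), and ranged from 0.93 to 1.76 without 1 library. The interaction count of 226 was 934 with DESeq2 and 1 to 1274 without 1 library. The 25 records called in both series became 10 to 37 without 1 thirties library.

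Signs turned for 7 genes that were not called with all 4 libraries. Of these *Lefty2* passed in opposite directions without TKO 47 (-0.32, adjusted p = 0.0224) and without TKO 48 (0.31, adjusted p = 0.0291), and *Pgk1* passed without TKO 48 (0.56, adjusted p = 0.000108). *Lefty2* was -0.011 with limma-voom, -0.0027 with the GC trend removed and -0.32 to 0.31 without 1 library. With the length trend removed *Fn1* was 0.021 and *Kdm5d* 0.016, and with the GC trend removed *Kdm5d* was 0.044 and *Eif2s3y* 0.18. *Eif2s3y* was 0.014 when scaled by library totals. Without 1 library *Fn1* ranged from -0.22 to 0.015, *Pim3* ranged from -0.15 to 0.088, *Pgk1* ranged from -0.12 to 0.56, *Uty* ranged from -0.24 to 0.64, *Kdm5d* ranged from -0.55 to 0.30 and *Eif2s3y* from -0.42 to 0.30. The cause of these changes was not tested. No paired analysis was possible because no clone number occurs in both genotypes.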
